A study of Mus musculus with 4 samples.

Results

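The matrix metalloproteinase and ADAM families are zinc-dependent proteases that cut the extracellular matrix and proteins at the cell surface, together with their tissue inhibitors. The genes were taken by name: each gene name in the array files that reads Mmp, Adam, Adamts, Adamtsl or Timp followed by a number. Of 18354 gene names, 73 met this rule, comprising 23 Mmp, 28 Adam, 15 Adamts, 3 Adamtsl and 4 Timp genes. Ring1B occupancy could be measured at the promoters of 69 of them, out of 17649 promoters in all. Adam6, Adam25, Adam26b and Adam39 had 1 or 2 probes each, too few for a value. Adam10, a widely expressed sheddase, is not among the gene names and was not analysed here.

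The cells were mouse embryonic fibroblasts of the strain C57BL/6, taken at embryonic day 12.5, used at passage 2 and grown on gelatin-coated dishes. They were homozygous for Phc2 L307R or wild type, and the 2 genotypes shared all other labelled conditions. Chromatin immunoprecipitated with a Ring1B antibody was labelled with Cy5 and set against input DNA in Cy3 on promoter arrays, after both had been amplified with T7 RNA polymerase (ChIP-on-chip). Dyes were not swapped, and the genotype rests on the labels, since no probe used here is named for Phc2. There were 4 arrays, 1 for each genotype on each of 2 array designs that carry different promoters. Each promoter was therefore measured on 1 array per genotype, so that no error between cultures can be given, no p-value is reported, and the genotype cannot be told apart from the array it was hybridised to. The sources used here do not give the number of embryos or cultures behind an array.

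Ring1B is the catalytic subunit of Polycomb repressive complex 1 (PRC1), which ubiquitinates histone H2A and keeps developmental genes silent. Phc2 belongs to the same complex and can polymerise through its SAM domain. The study's title ties that property to nuclear PRC1 clusters and silencing, and the comparison asks what happens to Ring1B at promoters when Phc2 is altered. The Mmp proteases degrade collagens and other matrix proteins, the Adam proteases release ligands and receptors from the cell surface, the Adamts proteases cut proteoglycans and process procollagen, and the Timp proteins inhibit many of them. In fibroblasts several of these genes are active in matrix turnover, whereas many Adam genes are expressed in the testis of mice and serve sperm.

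A value below is the mean log2 ratio of immunoprecipitate over input in a window of 3 neighbouring probes, relative to the median of its array. The window of each promoter was the one with the highest mean over both genotypes, so that levels are maxima along the promoter. The SD printed beside a level or a difference is taken over these 3 probes and does not cover the spread between cultures. A promoter was called bound at a level of at least 1. It was called higher or lower in Phc2 L307R (rose or fell) if it was bound in either genotype, the windows differed by at least 1, which is 2-fold, and all 3 probes lay on the same side. Differences are Phc2 L307R minus wild type throughout.

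The immunoprecipitate was well above background at 97.9% to 99.7% of probes, but the input was so at 75.0% and 76.3% of probes on the Phc2 L307R arrays and at 85.7% and 86.7% on the wild-type arrays. Among the 69 members, at least 1 of the 3 probes of the window had an input not well above background at 50 promoters in Phc2 L307R and at 40 in wild type, and a ratio over such an input is only a bound. The immunoprecipitate was that dim at 6 members, which are Adam8, Adamts18, Mmp11, Mmp12, Mmp13 and Mmp24. The deposited value tables hold the same Phc2 L307R ratios (r = 0.999 over probes), whereas the wild-type tables differ from the wild-type scanner ratios (r = 0.854 and 0.890), and their origin is not stated. Differences read from the value tables at the same windows are therefore given for the genes described singly. The arrays measure occupancy and not RNA, and they cannot tell a change in all cells from a change in some of them. At the promoters of fibroblast marker genes 9 of 10 were bound in each genotype, with medians of 2.26 in Phc2 L307R and 1.93 in wild type. Of the blood markers 0 of 4, of the endothelial markers 1 of 4 and of the epithelial markers 2 of 4 were bound in each genotype. Over all promoters 39.3% were bound in Phc2 L307R and 45.4% in wild type.

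Ring1B was bound at 33 of the 69 members (47.8%) in Phc2 L307R, where 39.3% of all promoters were bound, and at 24 (34.8%) in wild type, where 45.4% of all promoters were bound. Both genotypes shared 22 bound members, and 34 members were bound in neither, so that 35 were bound in either genotype, against 51% of all promoters. The order of the genotypes turned under several alternatives: 14 members were bound in Phc2 L307R and 17 in wild type with normexp background correction, 18 in Phc2 L307R and 20 in wild type with probes well above background alone, 24 in Phc2 L307R and 26 in wild type with the window highest in wild type, 13 in Phc2 L307R and 14 in wild type with a cut-off of 1.5, and 2 in Phc2 L307R and 3 in wild type with the mean over all probes. In the value tables, with windows chosen anew, 32 were bound in Phc2 L307R and 31 in wild type, against 39.7% and 45.1% of all promoters. A further 11 members (15.9%) were bound in Phc2 L307R only, against 5.54% of all promoters, and 2 members (2.90%) were bound in wild type only, against 11.7% of all promoters. These shares describe these arrays, since many members lie near the cut-off: Adamts20 and Adamtsl2 lay just above it in Phc2 L307R at 1.05 and 1.06, and Mmp23 and Mmp28 just below it there at 0.95 and 0.92. In wild type Adam22 and Timp3 lay just above it at 1.02 and 1.09, and Adamts7 and Adamts4 just below it at 0.99 and 0.96.

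The members had a median level of 0.92 in Phc2 L307R and 0.76 in wild type, with a median difference of 0.08. Over all promoters the median was 0.80 in Phc2 L307R and 0.90 in wild type, and the median difference was -0.05. The level was higher in Phc2 L307R by any amount at 41 of 69 members (59.4%), against 45.5% of all promoters. By the size rule 1 member rose, Mmp8, where 0.839% of all promoters did, and 0 members fell, where 1.54% of all promoters did. The difference reached 0.5 in either direction at 15 of the 69 members, against 24.2% of all promoters, and exceeded its own SD over probes at 24, against 35.3% of all promoters. None of the 69 members reached a level of 3 in either genotype, which 1.44% of all promoters did in Phc2 L307R and 1.58% in wild type. Across the 69 genes the levels of the genotypes correlated at r = 0.843 (Pearson), close to the 0.848 across all promoters. This correlation is across genes, which are not independent replicates, and both arrays of a design share their probes.

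**Figure D1:**
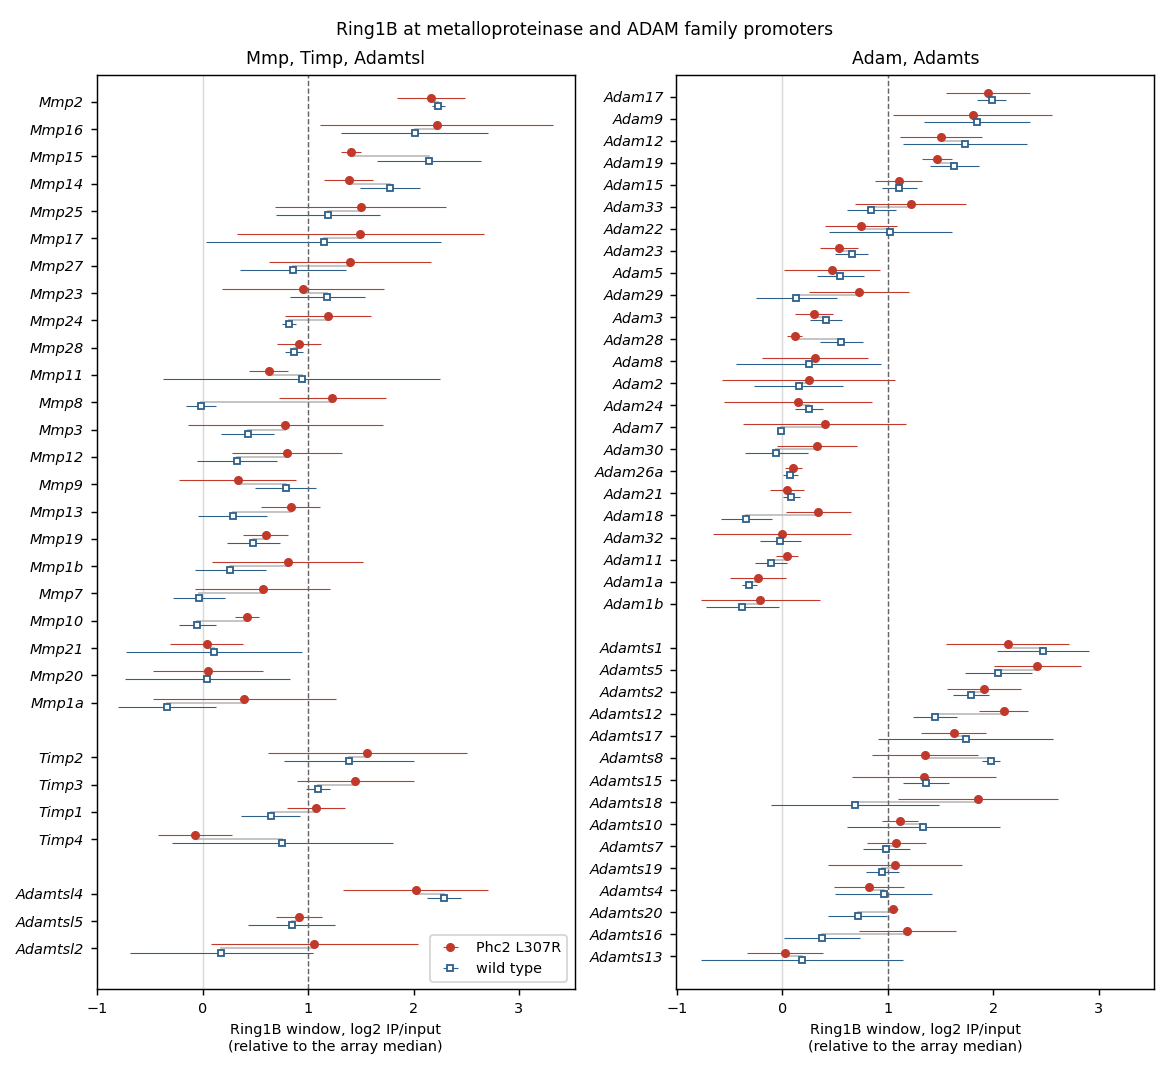
Ring1B level (log2 immunoprecipitate over input, relative to the array median) at each of the 69 promoters, with Phc2 L307R as filled red points and wild type as open blue squares; bars are the SD over the 3 probes of the window and the dashed line marks the bound cut-off of 1. Adamts1, Adamts5, Mmp2, Mmp16, Adamtsl4 and Adam17 all lie near 2 or above in both genotypes, and the testis Adam genes lie below the line in both.

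**Figure D2:**
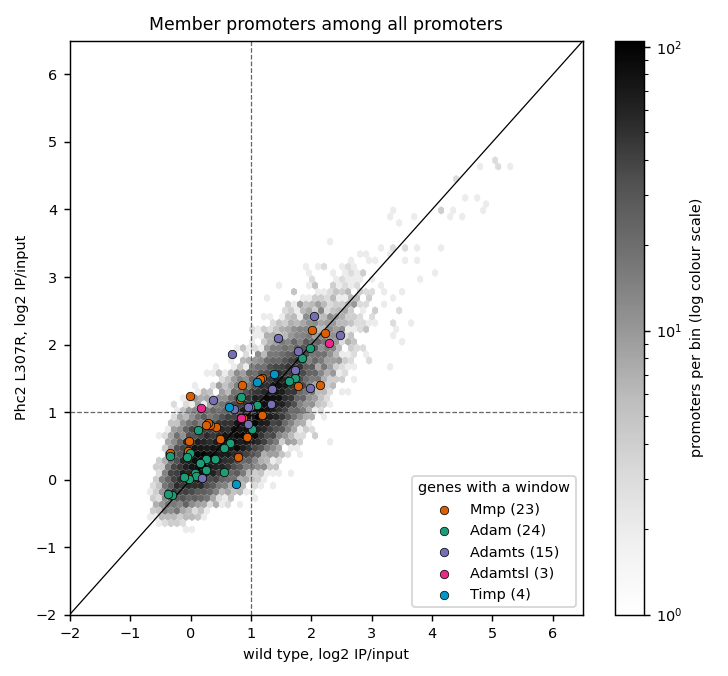
Level in Phc2 L307R (vertical axis) against level in wild type (horizontal axis), both log2, for all 17649 promoters in grey (colour scale: promoters per bin, logarithmic) and for the 69 members by family; the diagonal is equality and the dashed lines are the bound cut-off. The members lie within the cloud of all promoters and below a level of 3, and Mmp8 is the orange point at 1.23 in Phc2 L307R and -0.02 in wild type.

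For the families here and the groups below, the shares bound over all promoters were 39.3% in Phc2 L307R and 45.4% in wild type. By family, the Adamts promoters were bound at 13 of 15 in Phc2 L307R and at 8 of 15 in wild type, with medians of 1.34 in both genotypes. These counts turn on values near the cut-off, such as Adamts7 at 0.99 and Adamts19 at 0.95 in wild type and Adamts20 at 1.05 in Phc2 L307R. In the deposited wild-type values Adamts18, Adamts19 and Adamts20 reached 1. The Adam promoters were bound at 6 of 24 in each genotype, with medians of 0.33 in Phc2 L307R and 0.25 in wild type. The Mmp promoters lay between them, with 9 of 23 bound in Phc2 L307R and 7 of 23 in wild type, and medians of 0.83 in Phc2 L307R and 0.79 in wild type. Of the Timp promoters 3 of 4 were bound in Phc2 L307R and 2 of 4 in wild type, and of the Adamtsl promoters 2 of 3 in Phc2 L307R and 1 of 3 in wild type.

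Promoter sequences of single members are given as examples, and a relation of base composition to level was not tested. RefSeq promoters (GRCm38.p6, from 250 bases before to 50 bases after the gene start) were at hand for 42 of the 69 members (60.9%), which is too few for a comparison over all members. Adamts1 is the highest member, and Adamtsl4 is the next highest with an entry, since Adamts5 and Mmp2 have none. Mmp8, the member that met the size rule, stands at place 39 by level, and Adam1b is the lowest member. Each is written 5′ to 3′ on the strand of its gene, with CG dinucleotides, which read the same on both strands, in capitals. Since no source used here names the genome build of the probes, the place of the array window in these stretches was not set.
Adamts1: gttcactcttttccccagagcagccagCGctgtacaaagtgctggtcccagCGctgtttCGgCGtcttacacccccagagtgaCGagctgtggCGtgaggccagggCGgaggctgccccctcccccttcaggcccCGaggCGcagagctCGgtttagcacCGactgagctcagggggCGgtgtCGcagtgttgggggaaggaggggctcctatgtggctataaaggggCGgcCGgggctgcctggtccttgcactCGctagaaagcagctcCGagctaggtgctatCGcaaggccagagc
Adamtsl4: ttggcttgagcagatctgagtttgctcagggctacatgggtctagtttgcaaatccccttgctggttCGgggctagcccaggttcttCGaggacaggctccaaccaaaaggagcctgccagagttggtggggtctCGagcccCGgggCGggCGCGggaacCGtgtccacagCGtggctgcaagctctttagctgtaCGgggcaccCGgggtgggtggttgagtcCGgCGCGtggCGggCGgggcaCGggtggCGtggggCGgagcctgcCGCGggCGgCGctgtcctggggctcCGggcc
Mmp8: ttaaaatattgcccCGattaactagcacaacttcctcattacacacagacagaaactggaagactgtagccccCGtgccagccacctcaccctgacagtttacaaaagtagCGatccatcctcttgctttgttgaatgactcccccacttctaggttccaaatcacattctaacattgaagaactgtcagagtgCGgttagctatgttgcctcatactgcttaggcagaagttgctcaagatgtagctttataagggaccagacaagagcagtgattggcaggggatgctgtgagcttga
Adam1b: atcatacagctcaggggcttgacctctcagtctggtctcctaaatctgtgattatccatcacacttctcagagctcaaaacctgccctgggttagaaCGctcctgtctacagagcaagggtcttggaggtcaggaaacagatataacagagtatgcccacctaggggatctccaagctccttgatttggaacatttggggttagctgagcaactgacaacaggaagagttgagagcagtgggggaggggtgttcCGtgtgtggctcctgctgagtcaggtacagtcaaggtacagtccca
The Adamts1 promoter (chr16:85803064-85803363, minus strand) holds 18 CG at 64.7% G and C, and 30.1% of the 27025 promoters in the table hold as many or more. The Adamtsl4 promoter (chr3:95687868-95688167, minus strand) holds 24 CG at 68% G and C, and 20% hold as many or more. The Mmp8 promoter (chr9:7558179-7558478, plus strand) holds 4 CG at 46% G and C, and 38.3% hold as few or fewer. The Adam1b promoter (chr5:121503386-121503685, minus strand) holds 2 CG at 51% G and C, and 23.9% hold as few or fewer. The median of the table is 7 CG. Promoters with a window on these arrays had a median of 16 CG, over the 58.2% of them with an entry.

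By the mean over both genotypes the 3 highest members were Adamts1, Adamts5 and Mmp2. Adamts1, an aggrecanase and versicanase, had 2.14 ± 0.59 in Phc2 L307R, against 2.47 ± 0.44 in wild type (SD over 3 probes). The difference was -0.33 ± 0.15 in the scanner files and -0.61 in the value tables, short of the size rule. Its occupancy was broad: of 39 probes, 26 reached a ratio of 1 in Phc2 L307R and 19 in wild type, and the mean over all of them was 1.21 in Phc2 L307R and 1.15 in wild type. Adamts5, an aggrecanase of mouse cartilage and a neighbour of Adamts1 on chromosome 16, had 2.42 ± 0.41 in Phc2 L307R, against 2.05 ± 0.32 in wild type. Its difference was 0.37 ± 0.26 (0.28 in the value tables), and 21 of its 35 probes reached 1 in each genotype. Along both promoters the profiles of the genotypes ran together, and neither window difference was matched by the mean over all probes, where Adamts1 differed by 0.06 and Adamts5 by -0.02. In the coordinates of the files the windows lie at chr16:85691927-85692206 for Adamts1 and chr16:85789260-85789917 for Adamts5.

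Of the 6 proteoglycan-cleaving Adamts promoters, Adamts1 and Adamts5 included, 5 were bound in Phc2 L307R and 4 in wild type. Adamts8 had 1.35 ± 0.50 in Phc2 L307R, against 1.98 ± 0.08 in wild type, a difference of -0.63 ± 0.48 that was below 0 under each alternative tried, from -1.77 to -0.14. In the value tables the difference was -1.26, with 1.35 in Phc2 L307R and 2.61 in wild type, and Adamts8 met the size rule for a fall there. Adamts2, which removes the N-propeptide of fibrillar procollagens, had 1.91 ± 0.35 in Phc2 L307R, against 1.79 ± 0.17 in wild type, and the difference of 0.12 ± 0.29 turned to -0.44 in the value tables, where wild type stood at 2.35. Adamts12, known to cleave cartilage oligomeric matrix protein, had 2.10 ± 0.23 in Phc2 L307R, against 1.44 ± 0.21 in wild type, but the difference of 0.66 ± 0.44 was -0.11 in the value tables. Adamts7, of the same activity, stood at 1.08 ± 0.28 in Phc2 L307R and 0.99 ± 0.23 in wild type, with a difference of 0.10 in the scanner files and 0.09 in the value tables.

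The 5 Adamts promoters bound in Phc2 L307R only were Adamts7, Adamts16, Adamts18, Adamts19 and Adamts20. Adamts16 had 1.18 ± 0.46 in Phc2 L307R, against 0.37 ± 0.36 in wild type, and its difference of 0.81 ± 0.48 was 0.75 in the value tables. The difference of Adamts16 was above 0 under each alternative tried, but its size ranged from 0.09 to 1.13. It was 0.09 with normexp correction and 0.10 with probes well above background alone. All alternatives use the same arrays. Of the 35 probes of Adamts16, 5 reached 1 in Phc2 L307R and 0 in wild type. Adamts18 had 1.85 ± 0.76 in Phc2 L307R, against 0.69 ± 0.79 in wild type. This difference of 1.16 ± 1.53 was not called, because the 3 probes did not lie on the same side, and the value tables gave 1.46 in wild type. Adamts17 was bound in both genotypes, at 1.62 ± 0.31 in Phc2 L307R and 1.74 ± 0.83 in wild type, and its difference of -0.11 turned to 0.16 in the value tables. Adamts13, the plasma protease of von Willebrand factor, was the lowest of the family at 0.03 ± 0.36 in Phc2 L307R and 0.19 ± 0.96 in wild type, with differences of -0.16 in the scanner files and 0.10 in the value tables.

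The Adamtsl genes encode matrix proteins that resemble Adamts proteases without the protease domain. Adamtsl4 had 2.02 ± 0.69 in Phc2 L307R, against 2.29 ± 0.16 in wild type, a difference of -0.27 ± 0.80 that was -0.03 in the value tables. Adamtsl2 had 1.06 ± 0.98 in Phc2 L307R, against 0.18 ± 0.87 in wild type, and its difference of 0.88 ± 0.15 was 0.40 in the value tables. The mean over all 10 probes of Adamtsl2 was 0.33 in Phc2 L307R and 0.31 in wild type.

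**Figure D3:**
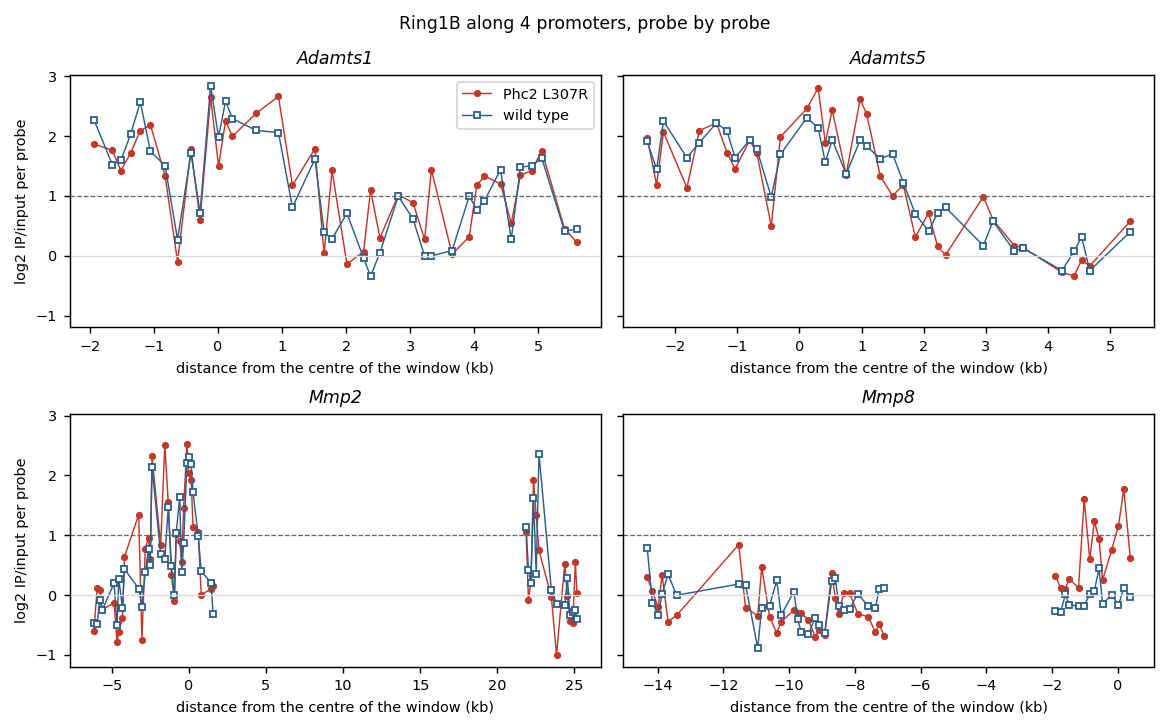
Ratio of single probes (log2, vertical axis) along the probed stretches of Adamts1, Adamts5, Mmp2 and Mmp8, by distance from the centre of the window (kb), with Phc2 L307R in filled red and wild type in open blue; lines join probes less than 2 kb apart and the dashed line marks a ratio of 1. At Adamts1, Adamts5 and Mmp2 the genotypes run together, and at Mmp8 they separate at the end of the stretch, where 4 of 44 probes reach 1 in Phc2 L307R and 0 in wild type.

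The membrane-type Mmp genes, whose products are anchored at the cell surface, were bound at 6 of 6 promoters in Phc2 L307R and at 5 of 6 in wild type, with medians of 1.45 in Phc2 L307R and 1.48 in wild type. Mmp14, the activator of pro-Mmp2, had 1.39 ± 0.23 in Phc2 L307R, against 1.78 ± 0.29 in wild type, with a difference of -0.39 ± 0.08 in the scanner files and -0.10 in the value tables. Mmp15 had 1.41 ± 0.09 in Phc2 L307R, against 2.15 ± 0.49 in wild type, a difference of -0.74 ± 0.42 that was -0.42 in the value tables. Under each alternative tried the difference of Mmp15 was below 0, from -0.83 to -0.11. Mmp16 was the highest of the group in Phc2 L307R at 2.22 ± 1.10, against 2.01 ± 0.70 in wild type, with a difference of 0.21 ± 1.61 in the scanner files and 0.44 in the value tables. The direction over the 6 depended on the summary: 4 of 6 window differences were above 0 in the scanner files, 2 of 6 in the value tables, and 0 of 6 for the mean over all probes, where 38.9% of all promoters were above 0.

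The gelatinases Mmp2 and Mmp9, which cleave denatured collagen and type IV collagen, stood far apart. Mmp2, made by fibroblasts, was among the 3 highest members, with 2.17 ± 0.32 in Phc2 L307R and 2.23 ± 0.06 in wild type (window chr8:95717216-95717538 in the coordinates of the files). All 3 of its probes lay near 2 in both genotypes, from 1.93 to 2.53 in Phc2 L307R and from 2.20 to 2.30 in wild type. Its difference of -0.07 ± 0.34 turned to 0.27 in the value tables. Mmp9, known from inflammatory cells, was bound in neither genotype in the scanner files, with 0.33 ± 0.56 in Phc2 L307R and 0.79 ± 0.29 in wild type. Its difference was -0.45 ± 0.27 there and below 0 under each alternative tried, from -1.30 to -0.24. In the value tables it was -1.30, from 0.34 in Phc2 L307R and 1.64 in wild type, and Mmp9 met the size rule for a fall. Adamts8 and Mmp9 were the 2 members that fell in the value tables, where, with windows chosen on those tables, 4.15% of all promoters did, and 0 members rose, where 0.295% of all promoters did. The stromelysins Mmp3, Mmp10 and Mmp11 were bound in neither genotype.

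A run of 10 Mmp genes lies side by side on chromosome 9, with 0 promoters of other genes inside. It spans 427 kb from the first probe to the last (chr9:7267110-7694206 in the coordinates of the files). The probes cover separate stretches named for the 10 genes and not the whole span. In order the genes are Mmp13, Mmp12, Mmp1b, Mmp3, Mmp1a, Mmp10, Mmp8, Mmp27, Mmp20 and Mmp7. They include the collagenases, a pair of stromelysins, the metalloelastase and matrilysin. Ring1B was low at these promoters: 2 of the 10, Mmp8 and Mmp27, were bound in Phc2 L307R and 0 in wild type. The median level was 0.79 in Phc2 L307R and 0.15 in wild type. All 10 window differences were above 0, from 0.01 at Mmp20 to 1.25 at Mmp8, with a median of 0.54. Of all promoters not bound in wild type 58% had a difference above 0, with a median of 0.07. Averaged over every probe of a promoter, the ratio was also higher in Phc2 L307R at 10 of 10, by 0.04 to 0.38 with a median of 0.26, against 48.4% of the promoters not bound in wild type. The promoters of this run are poor in CG, with a median of 1 and a range of 0 to 4 in the RefSeq stretches of all 10 genes.

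The size of this shift differed between the alternatives, and what it depends on was not tested. Normexp correction started from the raw signals. With it, and with probes well above background alone, the windows were also chosen anew. In Phc2 L307R 9 of the 10 windows held a probe with input not well above background, against 6 of 10 in wild type. With normexp background correction the median difference of the run was 0.0061 and 6 of 10 were above 0, and all promoters then had a median of -0.13 with 31.9% above 0. With probes well above background alone the run had a median of 0.09 with 7 of 10 above 0, and all promoters a median of -0.14 with 33.3% above 0. In the value tables at the same windows the run had a median of 0.46 with 9 of 10 above 0, against 60.1% of the promoters not bound in wild type and 48.6% of all promoters. Where windows were chosen anew on those tables it had 0.14 with 7 of 10 above 0, and all promoters had -0.06 with 43.9% above 0. The 13 Mmp promoters outside the run had a median difference of -0.07, with 7 of 13 bound in each genotype. Beyond its ends the nearest promoters differed by -0.68 ± 0.84 (Tmem123) and 0.02 ± 0.20 (Dcun1d5), and the 1033 promoters of chromosome 9 had a median difference of -0.0088.

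**Figure D4:**
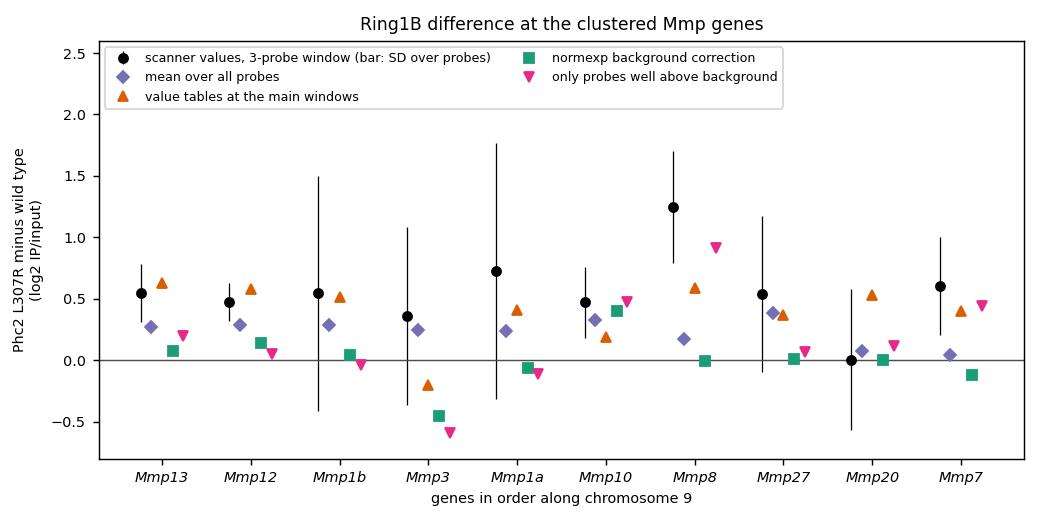
Difference in Ring1B, Phc2 L307R minus wild type (log2), at the 10 clustered Mmp genes in their order on chromosome 9; black points are window differences with the SD over 3 probes, and coloured symbols give the same genes as the mean over all probes, from the value tables, after normexp correction and from probes well above background. The black points and the means over all probes lie above 0 at all 10 genes, whereas the normexp values lie on both sides of 0 with a median of 0.0061. The normexp values and those from probes well above background come from windows chosen anew.

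Mmp8, the neutrophil collagenase, was the member that rose by the size rule, with 1.23 ± 0.51 in Phc2 L307R, against -0.02 ± 0.14 in wild type, a difference of 1.25 ± 0.46. The 3 probes read 0.76, 1.16 and 1.77 in Phc2 L307R and lay between -0.17 and 0.12 in wild type. These are neighbouring probes on 1 array per genotype, and the size rule itself requires all 3 to lie on the same side. The input was well above background at 2 of these probes in Phc2 L307R and at 3 in wild type. The window (chr9:7567831-7568258 in the coordinates of the files) lies at the end of a probed stretch of 14.8 kb, with 49 bp between the last probe of Mmp8 and the nearest probe of Mmp27. Mmp27 had 1.39 ± 0.77 in Phc2 L307R, against 0.86 ± 0.51 in wild type (a difference of 0.54, and 0.36 in the value tables), with 7 of 26 probes at 1 or more in Phc2 L307R and 2 of 26 in wild type. The rise of Mmp8 was not met in the value tables, where the same window stood at 1.23 in Phc2 L307R and 0.65 in wild type, a difference of 0.58. With normexp correction, where the window was chosen anew, the difference at Mmp8 was -0.0035. The main window itself was not read with normexp correction. The mean over all probes of Mmp8 differed by 0.18. What the rise depends on was not tested.

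The collagenases Mmp1a, Mmp1b and Mmp13 share this run. Mmp13 had 0.83 ± 0.28 in Phc2 L307R, against 0.29 ± 0.33 in wild type, and its difference of 0.55 ± 0.23 was 0.63 in the value tables at the same window. After scaling both arrays to the same spread, with the window chosen anew, the difference of Mmp13 was 0.04. Mmp1a and Mmp1b are close copies in the mouse, and their probes may cross-hybridise. They had differences of 0.73 ± 1.04 and 0.55 ± 0.96, which are smaller than their SD over probes, and 0.41 and 0.52 in the value tables.

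The somatic Adam genes with a protease site were bound at 6 of 8 promoters in Phc2 L307R and at 5 of 8 in wild type, with medians of 1.34 in Phc2 L307R and 1.37 in wild type and a median difference of -0.04. Adam17, the protease that releases tumour necrosis factor and many ligands of the epidermal growth factor receptor, had 1.95 ± 0.40 in Phc2 L307R and 1.98 ± 0.14 in wild type. Adam9 had 1.80 ± 0.75 in Phc2 L307R and 1.85 ± 0.50 in wild type. The meltrins Adam12 and Adam19, known from muscle and mesenchyme, had 1.5 ± 0.39 and 1.46 ± 0.14 in Phc2 L307R, against 1.73 ± 0.59 and 1.63 ± 0.23 in wild type. The differences of these 4 genes lay between -0.23 and -0.03, within the SD over their probes, and between -0.38 and -0.04 in the value tables. Adam15 stood at 1.10 ± 0.22 in Phc2 L307R and 1.11 ± 0.16 in wild type, and Adam33 at 1.22 ± 0.52 in Phc2 L307R and 0.84 ± 0.23 in wild type. Adam15 differed by 0.13 and Adam33 by 0.32 in the value tables.

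The neural Adam genes Adam11, Adam22 and Adam23, whose products lack a protease site, were bound at 0 of 3 promoters in Phc2 L307R and at 1 of 3 in wild type. Adam22, a receptor of Lgi proteins in brain, had 0.74 ± 0.34 in Phc2 L307R, against 1.02 ± 0.58 in wild type, with a difference of -0.28 ± 0.78 in the scanner files and -0.80 in the value tables. None of the 13 Adam promoters of testis and epididymis with a window was bound in either genotype, with medians of 0.25 in Phc2 L307R and 0.07 in wild type. Their levels ranged from -0.24 to 0.73 in Phc2 L307R and from -0.38 to 0.55 in wild type. The lowest of all members were Adam1b and Adam1a, which encode fertilin alpha in mice, at -0.21 ± 0.57 and -0.24 ± 0.27 in Phc2 L307R, against -0.38 ± 0.34 and -0.31 ± 0.07 in wild type. These are close copies of each other, so their probes may cross-hybridise, and their differences of 0.17 and 0.08 were 0.18 and 0.65 in the value tables. Adam18 stood at 0.34 ± 0.30 in Phc2 L307R, against -0.34 ± 0.24 in wild type, and its difference of 0.68 ± 0.26 was -0.13 in the value tables. Adam32 and Adam11, also among the 5 lowest members, lay near 0 in both genotypes: Adam32 at 0.0005 ± 0.65 in Phc2 L307R and -0.02 ± 0.20 in wild type, and Adam11 at 0.04 ± 0.11 in Phc2 L307R and -0.11 ± 0.15 in wild type. In the value tables they differed by 0.28 and 0.03.

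The Timp genes encode inhibitors that bind the active site of metalloproteinases. Timp2, which also takes part in the activation of pro-Mmp2, was bound at 1.56 ± 0.94 in Phc2 L307R and 1.39 ± 0.62 in wild type, and its difference of 0.17 ± 0.44 turned to -0.37 in the value tables. Timp3, which is held in the matrix and inhibits Adam17, was bound at 1.45 ± 0.55 in Phc2 L307R and 1.09 ± 0.11 in wild type, with a difference of 0.35 ± 0.47 that was 0.29 in the value tables. Timp1, on the X chromosome, had 1.08 ± 0.27 in Phc2 L307R, against 0.64 ± 0.28 in wild type, with a difference of 0.43 ± 0.36 in the scanner files and 0.21 in the value tables. Timp4 was bound in neither, with -0.07 ± 0.35 in Phc2 L307R and 0.76 ± 1.05 in wild type, and its difference of -0.83 ± 1.10 was 0.14 in the value tables. The RefSeq promoters of Timp2 and Timp3 hold 25 and 24 CG, that of Timp1 holds 8 and that of Timp4 holds 2.

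Of the 11 members bound in Phc2 L307R only, 4 (Adamts18, Adamts19, Adamts20 and Mmp27) reached 1 at the same window in the deposited wild-type values. Among all 977 promoters bound in Phc2 L307R only, 42.3% did so. The other members of this kind were Adam33, Adamts7, Adamts16, Adamtsl2, Mmp8, Mmp24 and Timp1. The members bound in wild type only were Adam22 and Mmp23.

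Genes that act with these proteases were taken from 4 lists. For comparison, 39.3% of all promoters were bound in Phc2 L307R and 45.4% in wild type, 0.839% rose and 1.54% fell. Of 12 related metalloproteases (astacins, pappalysins and neprilysin-like proteases) 3 were bound in Phc2 L307R and 4 in wild type, and none met the size rule. Of 11 genes of the plasminogen system and other regulators 7 were bound in Phc2 L307R and 5 in wild type, and 1 rose. This was Plat, tissue plasminogen activator, with 1.98 ± 0.25 in Phc2 L307R, against 0.88 ± 0.21 in wild type, a difference of 1.10 ± 0.23 that was 0.33 in the value tables. Of 13 ligands and receptors shed by Adam proteases 8 were bound in Phc2 L307R and 7 in wild type, and 1 fell. This was Egf, epidermal growth factor, with 0.08 ± 0.14 in Phc2 L307R, against 1.36 ± 0.28 in wild type, a difference of -1.28 ± 0.42 that was -1.87 in the value tables. Of 10 matrix substrates 8 were bound in each genotype, with medians of 1.70 in Phc2 L307R and 1.85 in wild type. The highest promoters on these lists were Cdh2 (N-cadherin) at 2.80 ± 0.25 in Phc2 L307R and 2.50 ± 0.43 in wild type, Col2a1 (type II collagen) at 2.42 ± 0.69 in Phc2 L307R and 2.50 ± 0.52 in wild type, and Col3a1 (type III collagen) at 2.56 ± 0.08 in Phc2 L307R and 2.26 ± 0.17 in wild type. Their value-table differences were -0.36 (Cdh2), -1.23 (Col2a1) and -0.12 (Col3a1). The median differences of the 4 lists lay between 0.11 and 0.20 in the scanner files, between -0.06 and 0.13 in the value tables at the same windows, and between -0.10 and 0.07 for the mean over all probes, where all promoters had -0.05, -0.01 and -0.05.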

How the data were processed

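Ring1B immunoprecipitates (Cy5) and input (Cy3) of Phc2 L307R and wild-type mouse embryonic fibroblasts were read on 4 promoter arrays, grouped by the genotype in the labels. Spot intensity values in the scanner files came from Agilent Feature Extraction 10.7.3.1, run by the authors per the file headers with background subtraction from negative controls, detrending (spatial as well as multiplicative) and a linear dye normalization. Each spot's log10 ratio of immunoprecipitate over input was deposited in the same files, per the file headers, and the deposited value tables are on a log10 scale as well, as a comparison with the scanner ratios showed. Their column medians are -0.0342 and -0.0393 in Phc2 L307R and -0.056 and -0.0615 in wild type (designs 1 and 2). What made the wild-type tables differ from the scanner ratios is unknown, while direction and scale are the same.

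From these files, control spots and outlier-flagged spots were left out, ratios were turned into log2 and each array was centred on its median. Windows held 3 probes within 2000 bp. Members, gene lists and rules were chosen with earlier results of these data known. With 1 array per genotype no test was made, and calls follow the fixed size rule. Genes described singly are the 12 highest members, those past the size rule, the 2 lowest and 2 highest differences of bound members in each family, the 5 lowest members and a fixed set (Mmp2, Mmp9, Mmp13, Mmp14, Adam10, Adam12, Adam17, Adam19, Adamts1, Adamts5, Timp1 to Timp4); related genes are those past the size rule and the 3 highest. Any other gene given with values was chosen after its values were seen. The steps were tested on simulated data. The alternatives were normexp background correction (offset 50), loess, scaling to the same spread, the value tables, bright probes alone, 5-probe windows within 3000 bp, windows chosen in a single genotype, the mean of all probes, a cut-off of 1.5, a 1.5-fold rule and single array designs. Motif counts used RefSeq promoters of GRCm38.p6. The number of arrays limits the precision. Calculations used Python 3.11.15, numpy 2.4.6, pandas 2.3.3, scipy 1.17.1, matplotlib 3.10.9 and R 4.3.3 with limma 3.58.1.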

Additional observations from a re-analysis of the deposited data

How the results depend on the processing

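Of the 69 members, 33 were bound in Phc2 L307R and 24 in wild type. With normexp the counts were 14 in Phc2 L307R and 17 in wild type, with bright probes alone 18 in Phc2 L307R and 20 in wild type, and with windows highest in wild type 24 in Phc2 L307R and 26 in wild type, so the order turned. Over all promoters the share bound was lower in Phc2 L307R than in wild type in each of these settings, as it was in the main one. The counts of members were nearly even in the value tables, at 32 in Phc2 L307R and 31 in wild type. With the mean over all probes the counts were 2 in Phc2 L307R and 3 in wild type, and with a cut-off of 1.5 they were 13 in Phc2 L307R and 14 in wild type. In single array designs, which hold different genes, the counts were 15 to 18 in Phc2 L307R and 11 to 13 in wild type, and 0 to 1 members rose. Over all promoters of a single design 38.3% to 40.2% were bound in Phc2 L307R and 45.2% to 45.7% in wild type, and 0.824% to 0.853% rose. The rise of Mmp8 was met under loess and equal spread, but 0 members rose with normexp, the value tables, bright probes alone, windows of 5 probes, windows highest in wild type, the mean over all probes or a cut-off of 1.5. Few of all promoters rose in these settings either: 0.0623%, 0.295%, 0.167%, 0.272%, 0.181%, 0.0113% and 0.521%, in the same order. With windows highest in Phc2 L307R 3 rose (Adamts16, Adamts19 and Mmp8), where 1.67% of all promoters did. With a 1.5-fold rule 4 rose (Adamts12, Adamts16, Adamtsl2 and Mmp8), where 3.25% of all promoters did. By the same rule 2 fell (Adamts8 and Mmp15), where 6.87% of all promoters did. From the value tables, Adamts8 and Mmp9 fell, which makes 2, where 4.15% of all promoters did. The difference of Mmp8 was -0.0035 with normexp, at a window chosen anew on those values, and the causes were not tested. The median difference over members lay between -0.17 (windows highest in wild type) and 0.23 (windows highest in Phc2 L307R). For 34 named genes, 250 of 340 alternative values stayed within 1 SD over probes, 89 moved further and 1 was reversed after a call; 29 genes changed sign somewhere and 5 (Adamts8, Adamts16, Adamtsl4, Mmp9 and Mmp15) never did. Over all promoters 271 fell and 148 rose, against 198 and 11 with normexp, 423 and 100 with equal spread and 732 and 52 in the value tables; the median of all promoters was -0.13 with normexp and -0.12 with equal spread, against -0.05. The value tables at the scanner windows, and all alternatives for the clustered Mmp genes, were added after seeing the data. No paired analysis was possible because the numbers in the titles name array designs with different probes. Precision is limited by the number of arrays and by dim input, which on the Phc2 L307R arrays touched 27 of the 35 members bound in either genotype.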

Other observations

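Promoters shared by a member and a divergent neighbour carry joint names that the naming rule does not take, and 6 of 8 such names had a window. The promoter of Mmp28 and Taf15 stood at 2.11 ± 0.02 in Phc2 L307R and 1.67 ± 0.88 in wild type, whereas the probes named for Mmp28 alone stood at 0.92 ± 0.21 in Phc2 L307R and 0.87 ± 0.08 in wild type. None of the 6 met the size rule.

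The 10 clustered Mmp genes were also set against the deposited wild-type values. At their windows these exceeded the wild-type ratios of the scanner files by 0.19 (median), and the mean over all probes of the value tables was higher in Phc2 L307R at 9 of 10 genes, with a median difference of 0.08.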
